A study of Rattus norvegicus with 14 samples.

Results

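The genes described here are markers of microglia, the resident macrophages of the brain, measured in RNA from primary rat cultures that were prepared as neurons or as astrocytes. They were chosen as 33 symbols known from microglia and related macrophages, and a symbol was kept where its mean normalized count was at least 10 in the astrocyte or the neuron table. In all, 32 of the 33 were kept, out of 31791 genes listed for astrocytes and 18239 for neurons. P2ry13, a purinergic receptor, was left out with a mean of 2.04 in astrocytes and no entry in the neuron table, and P2ry12 was the lowest of those kept, at 18.6 in astrocytes.

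Microglia enter the brain early in development from the yolk sac and depend on signalling through the receptor Csf1r and on the transcription factors Spi1 (PU.1) and Irf8. They survey the tissue with surface receptors such as Cx3cr1 and P2ry12, make the chains of the complement protein C1q, and take up debris through receptors that signal by the adaptor Tyrobp. In cultures of brain cells they grow on top of the astrocyte layer, and shaking the flask is the usual way to take them off. Several of the genes are also known from other cells, Coro1a and Cyba among them, so a count on them is not by itself a count on microglia.

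All cultures came from the hippocampus of embryonic day 18 Sprague Dawley rats and all were kept in AM medium, which models aging by fewer supplements, so neither culture has a group in full medium here. Neurons were on day 10 in culture, spent 4 h in AM medium with B27 reduced to 0.2%, and then received vehicle (AM-Veh, 0.001% ethanol) or 100 nM allopregnanolone (AM-Allo), a neurosteroid made from progesterone, for 16 h. There were 4 AM-Veh and 4 AM-Allo neuron libraries, numbered 1-1, 1-2, 2-1 and 2-2 in each group, and the labels do not say what either part of the number is. Astrocytes were grown as mixed glia, shaken overnight and re-plated after the supernatant with microglia and oligodendrocytes had been discarded, kept for 24 h in AM medium with 10% charcoal-stripped serum, and treated in the same way for 24 h (3 AM-Veh and 3 AM-Allo libraries). Nothing in the sources says that libraries of a group came from separate cultures or litters, so the p-values measure the spread between these libraries, which may be technical.

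The values are normalized counts, that is, estimated reads per gene after the authors' correction for library size. Libraries held about 19500000 to 25200000 reads on genes in neurons and 22200000 to 27800000 in astrocytes, and 1 read was worth 0.862 to 1.146 normalized counts. Of the 32 genes, all were tested in astrocytes. In neurons 25 were listed and 11 passed the minimum mean of 10, with Lcp1 at 11.3 just inside and Lyz2 at 7.86 just outside. The neuron table lists only genes above 0 in at least 4 libraries, and C1qa, C1qb, Itgam, Tyrobp, Trem2, Ly86 and Hpgds have no entry in it. The labelled cell types were checked against their markers. Summed over 11 astrocyte markers, the counts per 1000000 of the library were 11902 ± 994 in AM-Veh neurons (SD, n = 4) and 11973 ± 321 in AM-Veh astrocytes (n = 3), while the 11 neuronal markers in the tables (of 12) summed to 2672 ± 136 and 1162 ± 23.6. Cultures labelled neurons therefore carried as many counts on astrocyte markers as the astrocyte cultures did. Among the astrocyte libraries, AM-Veh 2 stood apart on the microglia genes, and the main results on these genes that rest on it are also given without it. For single genes of the related lists no fit without it is given.

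Astrocyte cultures held far more RNA of microglia genes than neuron cultures. The genes were summed per 1000000 normalized counts of each library, because the tables of the 2 cultures were normalized separately, and for the same reason no test compared them. The sums were 263, 348 and 273 per 1000000 in AM-Veh astrocytes 1 to 3 and 289, 285 and 298 in AM-Allo astrocytes. In neurons they were 49.3, 47.7, 53.8 and 50.9 in AM-Veh libraries 1-1, 1-2, 2-1 and 2-2, and 41.4, 41.1, 52.8 and 52.9 in AM-Allo libraries. The sums hold 32 genes in astrocytes and the 25 that are listed in neurons. Every astrocyte library was above every neuron library, and the treatment groups overlapped in both cultures. Only 11 of the genes reached the minimum mean in neurons. The others were taken in through astrocytes alone, so for them a higher level there was fixed by the choice of genes. In bulk RNA, a smaller number of cells of a type cannot be told apart from less RNA in each of them.

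**Figure D1:**
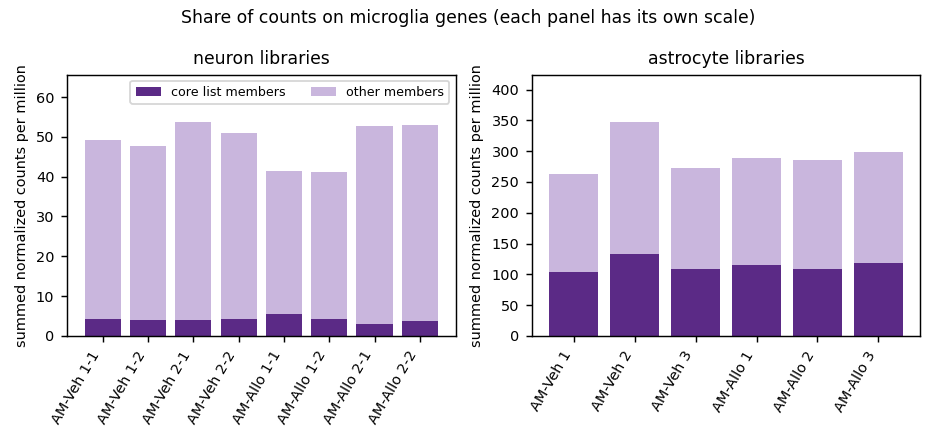
Summed normalized counts per 1000000 of each library on the microglia genes, in 8 neuron libraries (left) and 6 astrocyte libraries (right), with separate vertical scales from 0; dark bars are the core list and light bars the other genes. Neuron libraries sum to 41.1 to 53.8 per 1000000, of which the core list is 3.12 to 5.51, and astrocyte libraries to 263 to 348, of which it is 104 to 133.

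A core list of 20 symbols held 19 of the genes and P2ry13, among them Csf1r, Cx3cr1, Trem2, Tmem119, Spi1 and the C1q chains. It left out 11 genes that are also known in other cells of such cultures (Lyz2, Mrc1 and Cd68 among them), and Cybb and Ptpn6 too. It summed to 115 ± 15.6 per 1000000 in AM-Veh astrocytes (SD, n = 3) and 114 ± 4.93 in AM-Allo astrocytes (n = 3). In neurons it summed to 4.10 ± 0.186 with vehicle and 4.19 ± 1.02 with Allo (n = 4 each), where 13 of the 20 were listed. Only 4 of the 20 reached the minimum mean in neurons, so the same limit holds for the core list. Coro1a alone had 23.1 per 1000000 in neurons, and without it AM-Veh neurons summed to 26.3 per 1000000 and AM-Allo neurons to 25.1.

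Gene by gene, the 11 genes that reached the minimum mean in neurons can be set beside the 15311 genes of both tables that did so too. Of the 11, 10 were higher per 1000000 in every astrocyte library than in every neuron library, where 28.6% of all these genes were. The ratio of the astrocyte mean to the neuron mean had a median of 6.02 over the 11, against 0.894 over all, and was over 10 for 3 of them, Lcp1 (27.2), Tmem119 (12.6) and Itgb2 (11.97), against 2.29% of all. The narrowest ratios above 1 were those of Cd68, a lysosomal glycoprotein (1.81), Spi1 (4.09), Cyba, a membrane subunit of the NADPH oxidase (4.11), and Tlr2, a receptor for bacterial lipoproteins (5.205). The other 14 listed genes had neuron means of 1.46 to 7.86 normalized counts and were taken in through astrocytes alone, so that a higher level there was fixed by the choice of genes. Their ratios ran from 7.21 for P2ry12 to 104 for Ctss, a lysosomal protease, and rest on few neuron reads. Among them were Lyz2, a lysozyme of phagocytes, Cd74, the invariant chain of class II antigen presentation, and Mrc1, the mannose receptor, and their order was not resolved at this depth. Coro1a, an actin-binding protein of leukocytes that neurons are also known to make, was the exception. It was 5.43 times higher in neurons (23.1 against 4.24 per 1000000), with every neuron library above every astrocyte library, as for 42.7% of the 15311 genes.

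**Figure D2:**
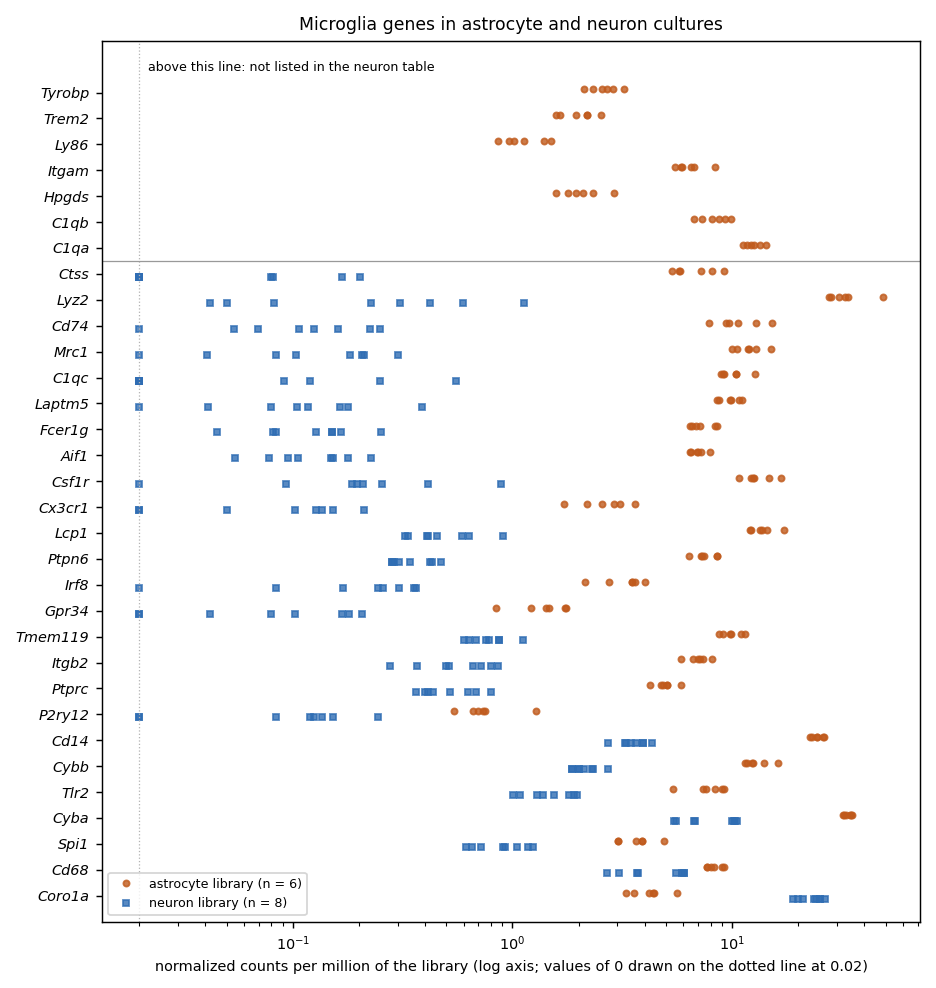
Normalized counts per 1000000 for each microglia gene (rows) in each of 6 astrocyte libraries (circles) and 8 neuron libraries (squares), on a log axis, with values of 0 drawn at the dotted line. Rows run from the lowest astrocyte to neuron ratio (Coro1a, 0.184) to the highest (Ctss, 104), and the 7 rows above the line are not listed in the neuron table. Neuron values under a mean of 10 stand on few reads.

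The levels of the genes follow by role, as normalized counts per library in the order of the replicate numbers. For each role the gene with the highest mean in the culture was taken, without comparison between genes, since transcript lengths were not used. Csf1r, the receptor for the growth factors Csf1 and Il34, was at 299, 401 and 298 in AM-Veh astrocytes and 289, 256 and 355 in AM-Allo astrocytes. C1qa, a chain of C1q, was at 265, 342 and 290 with vehicle and 278, 319 and 300 with Allo. Both were highest in AM-Veh 2, and the groups overlapped.

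Tmem119, a surface protein of resting microglia, was at 207, 236 and 234 in AM-Veh astrocytes and 262, 216 and 275 in AM-Allo astrocytes. Fcer1g, an adaptor that signals for Fc receptors, was at 163, 205 and 170 with vehicle and 156, 153 and 201 with Allo. Itgb2, the beta chain of the leukocyte integrins, was at 139, 177 and 171 with vehicle and 193, 158 and 169 with Allo. None of these groups was separate.

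Cd14, the co-receptor for lipopolysaccharide, was at 541, 630 and 550 in AM-Veh astrocytes and 577, 616 and 585 in AM-Allo astrocytes. Lyz2 was at 655, 1167 and 673 with vehicle and 781, 734 and 810 with Allo, so that the AM-Veh group held both its lowest and its highest values. Cyba was at 762, 837 and 770 with vehicle and 821, 838 and 793 with Allo, and of the 32 genes it varied least between libraries, with a coefficient of variation of 4.17%. Lcp1, an actin-bundling protein of leukocytes, was at 288, 412 and 343 with vehicle and 320, 291 and 329 with Allo. Hpgds, a prostaglandin D synthase of microglia and macrophages, was at 37.5, 69.6 and 42.9 with vehicle and 55.6, 46.6 and 50.3 with Allo. In GRCr8, 9 of the 32 genes overlap another annotated gene, among them P2ry12 (with Med12l), Gpr34 (with Cask) and Hpgds (with Smarcad1). Cx3cr1 (with LOC134480114) and Spi1 (with LOC120101909), which are named below for Allo, are also among them. Whether reads were shared was not tested.

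In neurons, several genes known mainly from microglia stood on a few reads per library. C1qc was at 5.47, 2.62, 0 and 0 in AM-Veh libraries 1-1, 1-2, 2-1 and 2-2, and at 12.2, 2.01, 0 and 0 in AM-Allo libraries. All 4 libraries with first number 2 were at 0 and all 4 with first number 1 were above it. Fcer1g was at 5.53, 1.79, 3.36 and 1.88 with vehicle and 2.81, 0.999, 3.67 and 3.37 with Allo. Tmem119 was measured more firmly, at 13.3, 19.1, 19.5 and 16.9 with vehicle and 14.0, 15.0, 17.3 and 25.1 with Allo. Itgb2 was at 18.9, 6.07, 11.5 and 15.98 with vehicle and 17.7, 10.997, 8.16 and 14.8 with Allo. Coro1a, by contrast, was at 579, 531, 562 and 469 with vehicle and 441, 418, 560 and 529 with Allo.

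Between astrocyte libraries, many of the genes were high in the same library. AM-Veh 2 was the highest of the 6 libraries for 23 of the 32 genes (71.9%), against 15.7% of all 15380 genes tested, and above the gene's mean for 30 of 32. The fold of AM-Veh 2 over the mean of the other 5 libraries was 1.23 at the median, from 0.964 for P2ry12 to 1.598 for Lyz2. It was over 1.2 for 18 of the 32 genes (56.3%), against 6.31% of all genes. AM-Veh 1 lay at the other end, as the lowest library for 11 genes, and no gene was highest in it. The library was chosen for this after the values were seen, and no test was made of it.

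AM-Veh 2 stood above the mean at the median of every role. All 3 C1q chains, all 5 genes of leukocyte signalling and cytoskeleton (Ptprc, Ptpn6, Aif1, Lcp1 and Coro1a) and 5 of the 6 genes of lysosome, phagocytosis and antigen presentation were highest there. Their median deviations from the mean of 6 libraries were 0.27, 0.25 and 0.31 on the log2 scale. Of the lineage factors, Irf8 and Csf1r were highest in AM-Veh 2 and Spi1 was not, at 92.7, 87.5 and 72.4 with vehicle and 116, 92.4 and 72.8 with Allo.

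**Figure D3:**
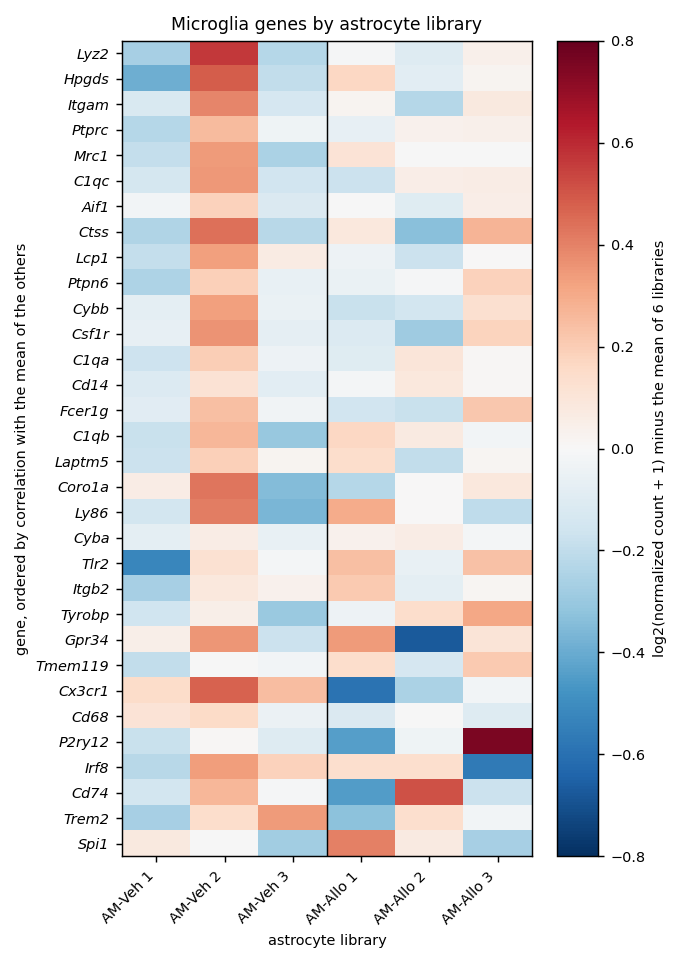
Log2(normalized count + 1) of each microglia gene (rows) minus its mean over the 6 astrocyte libraries (columns), with red above and blue below the mean and a line between the AM-Veh and AM-Allo groups. AM-Veh 2 is the highest library for 23 of 32 genes, and Cx3cr1 is the gene with all AM-Veh libraries above all AM-Allo libraries.

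Lists of related and of other cells were followed through the same library. In AM-Veh 2 the median deviation was 0.31 for 6 markers of border macrophages, 0.23 for 5 partners of the NADPH oxidase, 0.21 for 13 further genes of resting microglia and 0.16 for 11 complement genes other than C1q. It was lower for 9 genes of the TLR and CD14 pathway (0.09), 4 further receptors (0.08), 9 inflammasome genes (0.06) and 15 genes of activated microglia (0.04), of which 4 were highest in that library, and it was −0.02 for 9 ligands. The median was 0.01 for 11 astrocyte markers, −0.02 for 8 markers of the oligodendrocyte lineage, −0.01 for 4 mesenchymal markers and −0.05 for 6 neuronal markers. The list of border macrophages, which sit along vessels and meninges, summed to 49.2 ± 7.11 per 1000000 in AM-Veh astrocytes (range 44.3 to 57.3) and 48.8 ± 0.932 in AM-Allo astrocytes (range 47.8 to 49.6), with 7 of its 8 genes listed. Of the 8 genes, 6 had a mean of at least 10 in astrocytes, and Cd163 was at 0 in all 6 libraries. Among those 6 genes were Stab1, whose values are given under the other observations, and Mrc1, which is on both lists. Mrc1 was at 239 to 361 normalized counts. Of 10 markers of other blood cells, 9 were listed, and they summed to 0.0410 to 0.333 per 1000000. The part that border macrophages play in these values was not tested.

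As a description of the same pattern, the median Pearson r over the 496 pairs of the 32 genes was 0.461 across the 6 astrocyte libraries, where it was −0.0005 over pairs of all genes tested. With the treatment means removed it was 0.540. Without AM-Veh 2 it was 0.230 across 5 libraries, so that part of it rests on that library. The 19 tested genes of the core list had a lower median r, 0.357, and 0.168 without AM-Veh 2. For 6 markers of border macrophages it was 0.288, and −0.145 without AM-Veh 2. Lists of other cells had values of the same order, 0.299 for 8 genes of the oligodendrocyte lineage and 0.405 for 4 mesenchymal genes, and 0.392 and 0.413 without AM-Veh 2, both above the value of the microglia genes there. Against the mean of the other genes, r was over 0.5 for 21 of 32. It was highest for Lyz2 (0.99), Hpgds (0.92), Itgam, the alpha chain of complement receptor 3 (0.92), and Ptprc, the leukocyte phosphatase CD45 (0.91). It was lowest for Spi1 (−0.13), Trem2 (0.18), Cd74 (0.19), Irf8 (0.20) and P2ry12 (0.22). The libraries share their depth and their scaling, and 6 points carry little precision. In the 8 neuron libraries the median r over the 55 pairs of the 11 genes tested was 0.018.

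The promoters of genes that followed the others in astrocytes are shown for the binding motif of PU.1, the protein of Spi1. Of the 32 genes, 21 had a promoter of 300 bases (250 before and 50 after the start) in RefSeq for GRCr8, an assembly other than the one used for the counts. The PU.1 core GAGGAA, searched on both strands, was present in 14 of the 21 (66.7%), against 27.6% of all 33469 promoters of that length. The longer form GAGGAAGT, which contains the core, was present in 1 (4.76%), against 2.42%. The composite of ETS and IRF factors, GGAA and GAAA with 2 bases between, was present in 3 (14.3%: Cd68, Cd74 and Cybb), against 2.94%. A match is a description of the letters and not a site. Below, the 150 bases before the start are given for Lyz2, Itgam and Mrc1, whose r with the mean of the other genes was 0.99, 0.92 and 0.89, for the complement gene C1qb, and for Cybb, in which the core and the composite overlap. They are written on the strand of the gene with each core, and in Cybb the composite with it, in capitals, and TTCCTC is the core on the other strand.
Lyz2 (chr7:54798012-54798161, - strand): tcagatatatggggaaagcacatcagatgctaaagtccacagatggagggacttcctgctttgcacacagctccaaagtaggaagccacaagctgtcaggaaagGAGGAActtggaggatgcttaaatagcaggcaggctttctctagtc
Itgam (chr1:192089442-192089591, + strand): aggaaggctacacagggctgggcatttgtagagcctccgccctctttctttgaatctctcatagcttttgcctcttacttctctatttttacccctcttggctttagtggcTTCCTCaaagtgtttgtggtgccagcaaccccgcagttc
Mrc1 (chr17:82157575-82157724, + strand): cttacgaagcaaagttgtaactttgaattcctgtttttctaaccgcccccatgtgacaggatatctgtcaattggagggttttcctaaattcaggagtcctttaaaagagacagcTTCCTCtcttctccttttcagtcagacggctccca
C1qb (chr5:154407828-154407977, - strand): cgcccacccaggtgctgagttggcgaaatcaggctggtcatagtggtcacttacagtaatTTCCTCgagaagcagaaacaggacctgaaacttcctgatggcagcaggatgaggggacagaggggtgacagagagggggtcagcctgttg
Cybb (chrX:16065066-16065215, - strand): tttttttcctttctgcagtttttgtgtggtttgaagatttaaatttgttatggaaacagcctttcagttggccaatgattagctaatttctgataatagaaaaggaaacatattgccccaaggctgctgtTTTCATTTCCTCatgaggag
The core lay at bases −46 to −41 before the start in Lyz2, at −39 to −34 in Itgam (a second one, at −151 to −146, starts before the printed stretch, whose first 5 bases are its end), at −35 to −30 in Mrc1, at −90 to −85 in C1qb and at −14 to −9 in Cybb. Mrc1 and C1qb also held a second core before the printed stretch, at −180 to −175 and at −247 to −242. Among genes with a promoter in the table, Cx3cr1, C1qa, Cyba, Coro1a, Irf8, Ptpn6 and Tlr2 held no core in the 300 bases. Both the genes that followed the others closely and those that did not are among the 14 with a match, since Trem2 and Cd74 held it too.

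The comparison of AM-Allo with AM-Veh asked whether Allo changed the microglia genes. In astrocytes, 16 of the 32 were higher and 16 lower with Allo, and the median log2 fold change was −0.01, against 0.00 over all genes tested. In limma 1 of the 32 had an unadjusted p under 0.05, as did 7.01% of all 15380 genes. None passed after Benjamini-Hochberg adjustment over all genes, where 0.00650% of all genes did.

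**Figure D4:**
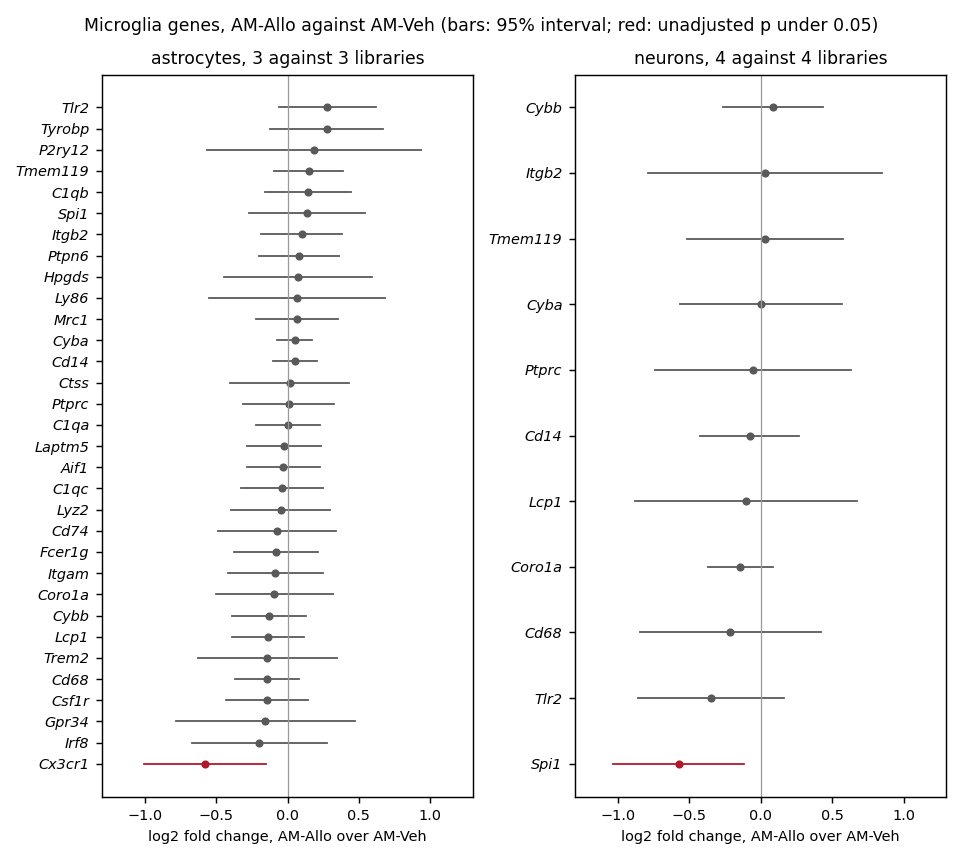
Log2 fold change of AM-Allo over AM-Veh with its 95% interval from limma for the 32 microglia genes in astrocytes (left, 3 against 3 libraries) and the 11 tested in neurons (right, 4 against 4); red marks an unadjusted p under 0.05. Cx3cr1 in astrocytes and Spi1 in neurons, both at −0.58, are the 2 genes whose interval leaves out 0.

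The gene was Cx3cr1, the receptor for fractalkine, at 68.8, 86.6 and 74.0 with vehicle and 41.0, 51.9 and 61.0 with Allo. All 3 AM-Allo libraries were below all 3 AM-Veh libraries, as they were for 6.07% of all genes. The log2 fold change was −0.58 ± 0.20 (SE), with an adjusted p of 0.552 in limma. The two-sided exact permutation test gave p = 0.1, the smallest it can give for 3 against 3. The log2 fold change was −0.49 once AM-Veh 2 was left out and −0.43 once AM-Allo 1 was left out, and in neither case was the unadjusted p in limma still under 0.05.

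For the other genes the intervals limit how large a change could have been. Cyba had a log2 fold change of 0.05 with a 95% interval of −0.07 to 0.17, and Cd14 one of 0.05 with an interval of −0.10 to 0.20. C1qa stood at 0.01 (−0.22 to 0.23) and Csf1r at −0.15 (−0.43 to 0.14). The interval was wider for P2ry12, at 0.18 (−0.56 to 0.93), and for Gpr34, a lysophosphatidylserine receptor, at −0.15 (−0.78 to 0.47). Tlr2 and Tyrobp were the highest of the 32, at 0.28 (adjusted p = 0.779 in limma) and 0.27 (adjusted p = 0.816 in limma).

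The balance of directions depended on AM-Veh 2. Without it, the median log2 fold change of the 32 genes was 0.11 in place of −0.01, and 4 genes (12.5%), all with higher values with Allo (C1qb, Lyz2, Mrc1 and Tlr2), were at an unadjusted p under 0.05, where 5.68% of all genes were, with none after adjustment in limma. Cx3cr1 was not one of them, and the library had been singled out by its values. Without AM-Allo 2, 4 genes were at an unadjusted p under 0.05 as well, 2 in each direction, where 7.06% of all genes were, and the median was 0.02.

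The signals that reach microglia were read from a list of 9 ligands. In astrocytes all 9 were tested, and 2 were higher with Allo at an unadjusted p under 0.05, where 3.72% of all genes were, and none was lower. Csf1, the ligand of Csf1r, was at 13226, 14206 and 13942 with vehicle and 13729, 15659 and 16320 with Allo (log2 fold change 0.14, adjusted p = 0.654 in limma). Ccl2, a chemokine for monocytes and microglia, was at 687, 885 and 862 with vehicle and 736, 1271 and 1219 with Allo (log2 fold change 0.37, adjusted p = 0.692 in limma). The groups overlapped for both.

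Of 9 tested genes of inflammasomes, the complexes that activate caspase-1, 2 were lower at an unadjusted p under 0.05, where 3.29% of all genes were, and none was higher. The sensor Nlrc4 was at 42.6, 48.0 and 34.96 with vehicle and 26.8, 22.1 and 27.9 with Allo (log2 fold change −0.68, adjusted p = 0.570 in limma), with no overlap. Its adaptor Pycard was at 48.0, 63.9 and 33.9 with vehicle and 21.5, 36.0 and 31.6 with Allo (log2 fold change −0.68, adjusted p = 0.684 in limma), with overlap. Both genes, like most of the microglia genes, were highest in AM-Veh 2, and no fit without that library is given for them.

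Elsewhere around the list, Rac2, the leukocyte GTPase that acts with the NADPH oxidase, had an unadjusted p under 0.05 in astrocytes, as 1 of 5 oxidase partners tested, but did not pass after adjustment (log2 fold change −0.28, adjusted p = 0.686 in limma). The same held for Tlr6, which pairs with Tlr2, as 1 of 9 genes of the TLR and CD14 pathway (log2 fold change −0.21, adjusted p = 0.669 in limma). Among 15 genes of activated microglia, it held for the osteopontin gene Spp1 (0.29, adjusted p = 0.686 in limma) and the galectin gene Lgals3 (−0.10, adjusted p = 0.558 in limma). Of 13 further genes of resting microglia and 11 complement genes, none was at an unadjusted p under 0.05. Over all genes in astrocytes, 3.29% were lower and 3.72% higher at that threshold.

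In neurons, 4 of the 11 genes tested were higher and 7 lower with Allo, with a median log2 fold change of −0.08, against 0.00 over all 15314 genes. In limma 1 of the 11 had an unadjusted p under 0.05, as did 5.69% of all genes. None passed after adjustment, where 0.0261% of all genes did.

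The gene was Spi1, the transcription factor that sets the macrophage lineage, at 23.1, 25.9, 27.6 and 20.7 with vehicle and 15.9, 20.0, 14.6 and 13.7 with Allo. All AM-Allo libraries were below all AM-Veh libraries, as for 1.89% of all genes. The log2 fold change was −0.58 ± 0.21 (SE), with an adjusted p of 0.758 in limma. The two-sided exact permutation test gave p = 0.0286, the smallest it can give for 4 against 4. Without AM-Veh 2-1 the log2 fold change was −0.52, and the unadjusted p in limma was no longer under 0.05. In astrocytes the same gene stood at 0.14 ± 0.19 (adjusted p = 0.923 in limma), and the difference between the cultures was not tested. Irf8 and Csf1r, of the same role, lay under the minimum mean in neurons and had higher means with Allo, with overlap. With no filter their log2 fold changes were 0.91 and 1.05 (adjusted p = 0.961 and 0.959 in limma).

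The other 10 genes had intervals that included 0. Cyba stood at 0.00 (95% interval −0.57 to 0.57), Cybb, its partner in the oxidase, at 0.09 (−0.26 to 0.43), and Cd14 at −0.08 (−0.42 to 0.27). This fit had no block, so its intervals also hold the differences between first numbers that are given below. For Cyba the means were 134.0 with vehicle and 134.5 with Allo in libraries numbered 1, and 229.1 and 228.4 in those numbered 2. Cd14 was at 86.4, 75.9, 73.3 and 88.1 with vehicle and 59.7, 72.0, 96.3 and 81.9 with Allo, so that the AM-Allo group held its lowest and its highest values. Tlr2 had the second largest change, at −0.35 (−0.86 to 0.16; adjusted p = 0.953 in limma). Its values were 28.3, 34.0, 42.6 and 44.0 with vehicle and 22.3, 23.95, 30.7 and 40.4 with Allo, and within each first number both AM-Allo libraries were below both AM-Veh libraries.

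Of the ligands, Cx3cl1 (fractalkine), which neurons make and Cx3cr1 binds, did not pass after adjustment in neurons. Cx3cl1 was at 2525, 2418, 2275 and 1983 with vehicle and 2540, 2452, 2615 and 2595 with Allo (log2 fold change 0.15, adjusted p = 0.822 in limma). It was the only 1 of 9 at an unadjusted p under 0.05, where 3.21% of all genes were higher at that threshold. The groups overlapped. In astrocytes no ligand passed after adjustment, and Cx3cl1 was not at an unadjusted p under 0.05.

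Lyz2 lay under the minimum mean in neurons and is named because its values were seen. It was at 24.7, 13.1, 6.85 and 9.38 with vehicle and 0.930, 4.999, 1.82 and 1.13 with Allo, with no overlap. Of the 15314 genes that reached the minimum mean, 1.89% were lower with no overlap. With no filter on low values the log2 fold change of Lyz2 was −2.18 ± 0.48 (adjusted p = 0.374 in limma). In that fit 2.42% of all genes were lower at an unadjusted p under 0.05. In astrocytes Lyz2 stood at −0.05 ± 0.16 (SE), and it lies beside another lysozyme gene, Lyc2, from which its reads may not have been told apart.

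The neuron libraries differed by the first part of their number more than by treatment. With treatment in the fit, 3 of the 11 genes were higher in libraries numbered 2 than in those numbered 1 at an unadjusted p under 0.05, where 15.3% of all genes were. In either direction 17.2% of all genes passed after adjustment, against 0.0261% between treatments. After adjustment 2 of the 11 were higher, where 9.61% of all genes were.

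Cd68 was at 81.5, 82.0, 132.5 and 134.5 in AM-Veh libraries 1-1, 1-2, 2-1 and 2-2, and at 67.2, 59.1, 133 and 123 in AM-Allo libraries. The log2 fold change of number 2 over number 1 was 0.86 ± 0.12 (SE), with an adjusted p of 0.000103 in limma. Cyba was at 119, 149, 229.8 and 228 with vehicle and 122, 147, 221 and 236 with Allo, with a log2 fold change of 0.77 ± 0.10 and an adjusted p of 5.01e-05 in limma. For both genes every library numbered 2 was above every library numbered 1, as for 10.2% of all genes. Tlr2 did not pass, at 0.53 ± 0.19 on the same scale (adjusted p = 0.0665 in limma), with overlap.

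**Figure D5:**
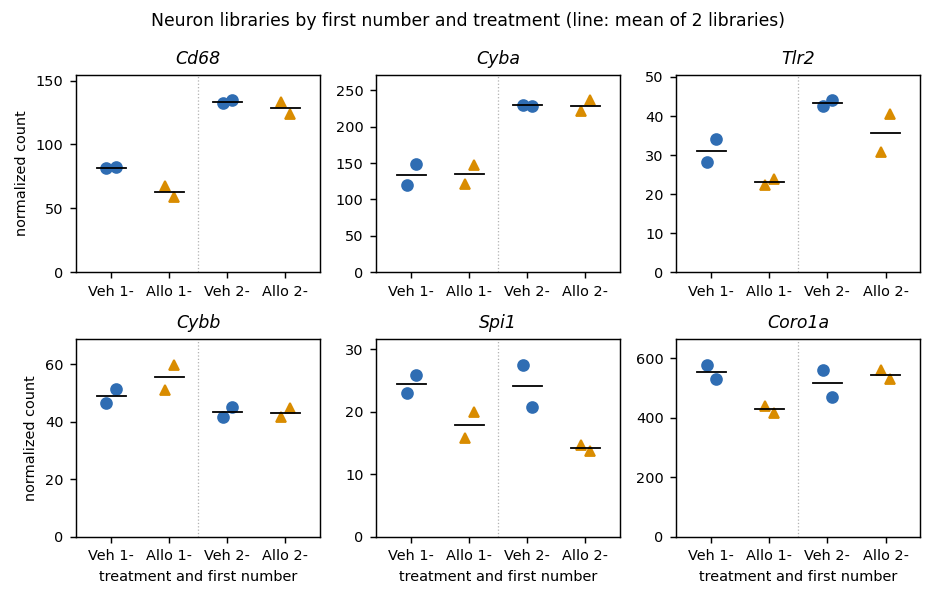
Normalized counts of 6 microglia genes in the 8 neuron libraries, by treatment (circles AM-Veh, triangles AM-Allo) and first number, with a line at the mean of 2 libraries and vertical axes from 0. Cd68 and Cyba are higher in every library numbered 2, Cybb is lower in every one, Spi1 is lower in every AM-Allo library, and Coro1a is lower with Allo only where the first number is 1.

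Other microglia genes had lower values in libraries numbered 2. Cybb was at 46.6, 51.3, 41.5 and 45.02 with vehicle and 50.9, 59.95, 41.5 and 44.8 with Allo, lower in every library numbered 2, as 9.47% of all genes were (log2 fold change −0.26, adjusted p = 0.284 in limma). C1qc, given above, was at 0 in every library numbered 2. Csf1r, at 4.08, 5.58, 0 and 4.65 with vehicle and 19.6, 9.11, 4.35 and 2.08 with Allo, had a mean of 9.60 in libraries numbered 1 and 2.77 in those numbered 2. Both lie under the minimum mean, and with no filter C1qc passed the adjusted threshold (adjusted p = 0.00946 in limma) and Csf1r did not (adjusted p = 0.0622 in limma). In that fit 14.1% of all genes passed the adjusted threshold. The core list summed to 3.88 to 5.51 per 1000000 in libraries numbered 1 and 3.12 to 4.21 in those numbered 2. The microglia genes therefore did not move as a group between the sets of neuron libraries, and their median log2 difference was 0.21, against 0.00 over all genes.

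Much else differed between these libraries. Gfap, the astrocyte filament gene, rose from a mean of 73158 in libraries numbered 1 to 112247 in those numbered 2. The astrocyte markers did not rise as a list. Of 11 tested, 4 were higher and 3 lower at an unadjusted p under 0.05 (15.3% and 14.1% of all genes were), with a median log2 difference of 0.02. Of 10 tested genes of activated microglia, many of which astrocytes also express, 8 were higher and 1 lower at an unadjusted p under 0.05 (15.3% and 14.1% of all genes were), with Lgals3 going from 569 to 1347, Gpnmb from 3713 to 6169 and Spp1 from 50.9 to 176. Of 6 mesenchymal markers 5 were lower by the same threshold, with Col1a1 going from 453 to 90.9, and all 4 genes of proliferation were lower, with Mki67 going from 1286 to 965. The part that these cells play in the values of Cd68 and Cyba was not tested.

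The fit with an interaction asked whether the difference between AM-Allo and AM-Veh neurons depended on the first number. For Coro1a, in libraries numbered 1 it was at 579 and 531 with vehicle and 441 and 418 with Allo, and in those numbered 2 at 562 and 469 with vehicle and 560 and 529 with Allo. The interaction on the log2 scale was 0.45 ± 0.13 (adjusted p = 0.237 in limma), where 9.53% of all genes had an interaction at an unadjusted p under 0.05. It was the only 1 of the 11 genes below that value, and Ptprc was next (adjusted p = 0.534 in limma).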

How the data were processed

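RNA-seq values of 8 neuron and 6 astrocyte libraries were assigned to 4 groups by culture and treatment, as labelled. The authors made poly(A) stranded libraries, read them as 150 bp paired ends, quantified transcripts of rat Ensembl release 95 (Salmon 0.14), brought these to gene level (tximport) and scaled the gene counts in DESeq2 1.18.1 (names and versions from the submitters' processing notes and the study's methods). The normalized signal was deposited as 1 table of counts per gene and culture, beside a deposited table of the authors' VST (variance-stabilized) values, close to a log2 scale. In all, 0 columns were left unused. The low values were not all whole multiples of 1 read, so depth was estimated from their commonest step. Date-like strings replaced 21 neuron and 24 astrocyte symbols.

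A pseudocount of 1 was added before log2. Genes with a mean of at least 10 in a culture entered the fit, each culture alone, with limma 3.58.1 (lmFit, eBayes with a trend) in R 4.3.3, with Benjamini-Hochberg adjustment across every gene in the fit. The 3 tested comparisons were AM-Allo against AM-Veh in neurons and in astrocytes, and first number 2 against 1 in neurons with treatment as a covariate. For single genes, mean log2 values were also compared by an exact permutation test (two-sided). On simulated data with known changes of 1 on the log2 scale, 97.4% of changed genes in the neuron design and 94.0% in the astrocyte design were recovered after adjustment (15291 and 15382 genes tested). The simulation gave every gene the same dispersion, that is, spread beyond counting noise, and no difference between first numbers. It therefore does not give the power for the microglia genes, whose own spread was not simulated.

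Deviations from the group means were correlated across genes between the AM-Veh and AM-Allo neuron libraries of each number, and r was 0.296, 0.229, 0.265 and 0.273, so the numbers were taken to pair the neuron libraries (genes are not independent points). Libraries that share only the first number had r of 0.185, 0.236, 0.211 and 0.196, so blocks by the whole and by the first number were both fitted.

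The genes, lists, tests and alternatives were chosen with earlier results of these data known. Values in every library are given for genes with an unadjusted p under 0.05 in a tested comparison and for the gene with the highest mean of each role in each culture, and others by range or count, with exceptions marked. Genes of related lists that are named for a change with Allo had an unadjusted p under 0.05, but not every gene at that threshold is named. In neurons 1 of 5 tested complement genes other than C1q was higher with Allo at that threshold, where 3.21% of all genes were. It did not pass after adjustment and is not named. Between first numbers, several related lists held further genes at that threshold that are not named.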

Additional observations from a re-analysis of the deposited data

Results flagged for a closer look

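Each group of 4 neuron libraries was checked for a library that lies far from the others, over 25 genes and both treatments. Of the 50 groups, 1 stood out, where chance gives about 1 in 20. C1qc was at 12.2 normalized counts in AM-Allo 1-1 and between 0 and 2.01 in the other AM-Allo neuron libraries, and the gap filled 0.835 of the whole range.

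For Coro1a, the difference between AM-Allo and AM-Veh neurons had an interaction with the first number of 0.45 on the log2 scale, at an unadjusted p under 0.05 (adjusted p = 0.237 in limma). Both AM-Allo libraries numbered 1 were below both AM-Veh libraries numbered 1, and those numbered 2 overlapped. This does not pass adjustment over all genes.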

How the results depend on the processing

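Of the alternatives, 224 values kept their direction and their side of the threshold or moved by less than the spread allowed. In neurons with Allo, the count of genes at an unadjusted p under 0.05 went from 1 to 2 with no filter (25 genes tested) and with VST values, and to 0 with a mean of at least 50 (4 genes tested). Over all genes the share was 5.69% in the main fit, 5.53% with no filter, 14.4% with VST values and 5.88% with a mean of at least 50. Leaving out 1 library gave 0 (without AM-Veh 2-1) to 2 (without AM-Allo 2-2), where 4.43% and 4.99% of all genes were at that threshold. The median change of the 11 genes (log2) then ran from −0.16 to 0.00185, with the sign turned without AM-Veh 2-2 (0.00185). The sign also turned with no filter (0.00558). Spi1 was at −0.52 without AM-Veh 2-1, no longer at an unadjusted p under 0.05. In astrocytes, leaving out 1 library gave 0 (without AM-Allo 1) to 4 genes (without AM-Veh 2 or AM-Allo 2; 2 without AM-Veh 1) at an unadjusted p under 0.05 and a median from −0.10 to 0.11, with 0.11 without AM-Veh 2 and 0.02 without AM-Allo 2. The cause of these changes was not tested.

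Between first numbers, 6 genes were at an unadjusted p under 0.05 with no filter, in place of 3, and the median log2 difference was −0.011. Of all genes, 25.9% were at that threshold with no filter and 29.3% in the main fit. With a mean of at least 50 the median was 0.49, and leaving out 1 library gave 0.087 to 0.31, the lowest without AM-Allo 2-2, where Tlr2 was also weaker (0.44). VST values were not run for this comparison, because in the deposited VST table of neurons the means of libraries numbered 1 and 2 were equal within 7.50e-09 for all 18239 genes. The sums per 1000000 normalized counts moved where a part of the genes was taken, with 4.10 and 4.19 in AM-Veh and AM-Allo neurons and 115 and 114 in astrocytes for the core list, and 26.3, 25.1 and, in AM-Allo astrocytes, 257 without the most abundant gene. Without AM-Veh 2, an alternative chosen after seeing the data, the median pairwise r of the astrocytes was 0.230.

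The neuron libraries were also fitted with a replicate block. Spi1 stayed at −0.58 on the log2 scale with a block by whole number and with one by first number. In both, 1 microglia gene was at an unadjusted p under 0.05, where 10.7% and 11% of all genes were. No call among the microglia genes changed. Over all genes, 93 and 104 passed adjustment with these blocks in place of 4, and in astrocytes 17 with a block in place of 1 and up to 72 with 1 library left out (without AM-Allo 1). In astrocytes same-numbered libraries correlated by 0.024, −0.0070 and 0.012, so they share only a number. The block left 1 gene there, Cx3cr1 (−0.58), and not every library correlated best with its own number. Depth limits the 14 genes under the minimum mean in neurons, which stand on few reads.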

Other observations

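Among the 14 genes that were listed in neurons under the minimum mean, 3 were lower in libraries with first number 2 at an unadjusted p under 0.05 with no filter, and none was higher, where 12.3% of all genes were lower and 13.6% higher in that fit. Beside C1qc and Csf1r this was Gpr34, at 4.56, 1.75, 2.28 and 0.938 in AM-Veh libraries 1-1, 1-2, 2-1 and 2-2 and 3.70, 3.98, 0 and 0 in AM-Allo libraries (log2 difference −1.45, adjusted p = 0.103 in limma). Irf8, at 0 to 7.99 normalized counts, and Cd74, at 0 to 5.59, overlapped between the first numbers and between the treatments. Stab1, a scavenger receptor from the list of border macrophages, was at 711 to 899 normalized counts in astrocytes, highest in AM-Veh 2, and at 0 to 10.3 in neurons.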
